A study of Mus musculus with 20 samples.

Results

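The mRNA levels of 10 genes of NAD metabolism were followed in BV-2 microglia, a line of immortalised mouse microglia derived from mixed brain cultures of young C57BL/6 mice. The genes are the sirtuins *Sirt1* to *Sirt7*, the NAD-forming enzymes *Nampt* and *Nmnat1*, and the NAD-degrading enzyme *Cd38*. They were chosen by symbol: each symbol matched 1 identifier among the 55487 genes of the count table, and all 10 genes were among the 12799 genes that passed the filter on low counts. RNA-seq libraries came from 4 groups of 5: young untreated, young LPS, aged untreated and aged LPS. Young cells were at low passage, and aged cells are the same line after months of cultivation. Per the study's methods, frozen aliquots of both were thawed together for use. Age here thus means time in culture of 1 cell line and not the age of a mouse. LPS, a bacterial ligand of Toll-like receptor 4, was given at 100 ng/ml for 6 h. All cells were wild type. The design asks how long cultivation changes expression without a stimulus, how each age responds to LPS, and whether the responses differ.

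NAD is a coenzyme of redox reactions and also a substrate that signalling enzymes use up. *Nampt* encodes the rate-limiting enzyme of the salvage route, which turns nicotinamide into nicotinamide mononucleotide, and *Nmnat1* encodes the nuclear enzyme that converts the mononucleotide into NAD. CD38 is a glycohydrolase at the cell surface and in internal membranes that cleaves NAD and makes the calcium messenger cyclic ADP-ribose; it is a familiar activation marker of macrophages. Sirtuins remove acyl groups from lysines and consume NAD in each cycle. SIRT1, SIRT6 and SIRT7 are mostly nuclear, SIRT2 mostly cytosolic, and SIRT3, SIRT4 and SIRT5 mitochondrial.

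Total counts per library ranged from 11371508 to 16829292. Of 12 microglia and macrophage markers, 10 were above 3 counts in every library, while *Cx3cr1* and *P2ry12* were not; the summed level of the 12 ranged from 2550 to 4660 CPM (read counts divided by the TMM-scaled library size and set to a common total). No marker of neurons, astrocytes, oligodendrocytes or fibroblasts was above 3 counts in every library. Of 4 endothelial markers, *Kdr* alone was, and *Cldn5* and *Tek* were at 0 throughout. The LPS-inducible genes *Nos2*, *Il1b*, *Il6* and *Tnf* summed to 13.0 to 34.4 CPM in untreated and 509 to 2240 CPM in LPS-treated libraries. In RNA of a whole culture, fewer cells that express a gene and less RNA of it per cell cannot be told apart. Each batch number of the labels holds 1 library of every group, and values are given below in the order of batches 1 to 5.

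The sequences just before the transcription starts are shown because the LPS responses of these genes differed in direction. They come from RefSeq on GRCm38.p6, which held all 10 genes in 13 start windows, and capitals mark the letters that were searched for. The letter forms were chosen after the windows of these genes were read. The shares of all windows given beside the matches are therefore a description and no test of enrichment. A RefSeq start need not be the outer end of the gene in GENCODE M21, from which the gene positions below are taken. The windows of *Cd38*, *Nampt*, *Sirt1* and *Sirt4*, and the more downstream windows of *Sirt3* and *Sirt6*, lie inside the bounds of the gene there. All 250 bases of the windows of *Cd38*, *Sirt3* and *Sirt7* are within annotated exons of these or other genes. So are 231 bases of the window with the *Sirt6* stretches shown, and 204 of that with the *Nmnat1* stretch. The *Sirt6* stretches shown lie inside the bounds of the *Sirt6* gene. Within the 250 bases before a start, on both strands, the letters CCGGAAGT of an ETS factor site stood before *Nmnat1*, *Sirt3* and *Sirt6*, and in 2.88% of the 32851 windows of all genes; printed on the strand of the gene they read ACTTCCGG. The stretch of *Sirt3* lies at chr7:140882377-140882406 (- strand), that of *Sirt6* at chr10:81627584-81627613 (- strand) and that of *Nmnat1* at chr4:149485200-149485229 (- strand).
Sirt3: agtgctcgctcACTTCCGGcaccgcgggcg
Sirt6: gtcccttcaccACTTCCGGcggaagcggcc
Nmnat1: tggattcgcgcACTTCCGGctgtgtggggc
A match says that the letters are there and nothing about binding.

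*Sirt6* also held the palindromic 10-base form of an NRF1 site, found in 0.782% of all windows, at chr10:81627690-81627719 (- strand).
Sirt6, farther from the start: catcaggaggGCGCATGCGCtctggaaaga

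*Sirt1* held the E-box CACGTG at 2 places, from 115 to 110 and from 43 to 38 bases before its start, and 6.02% of all windows held it. Its window outside annotated exons is chr10:63339051-63339285 (- strand).
Sirt1: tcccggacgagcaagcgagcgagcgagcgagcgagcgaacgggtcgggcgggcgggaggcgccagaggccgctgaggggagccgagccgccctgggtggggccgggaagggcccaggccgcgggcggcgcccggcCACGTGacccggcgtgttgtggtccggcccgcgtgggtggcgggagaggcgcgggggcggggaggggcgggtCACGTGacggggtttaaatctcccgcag

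*Cd38* and *Nampt*, the genes that rose most with LPS, held none of the 7 letter forms in these windows, which says nothing of other starts or of any factor. Among the forms were the NF-kappaB form, found in 1.41% of all windows, the form of interferon-stimulated response elements, in 2.98%, and TGANTCA for AP-1, in 6.75%. TTCNNNGAA, a STAT form, stood in 7.02% of all windows and in that of *Sirt7*. The 30 bases before the RefSeq start of *Cd38* are at chr5:43868779-43868808 (+ strand), and the 250 bases before that of *Nampt* at chr12:32820085-32820334 (+ strand).
Cd38: gataaaagcaagtgaaaaaaaggaggaggg
Nampt: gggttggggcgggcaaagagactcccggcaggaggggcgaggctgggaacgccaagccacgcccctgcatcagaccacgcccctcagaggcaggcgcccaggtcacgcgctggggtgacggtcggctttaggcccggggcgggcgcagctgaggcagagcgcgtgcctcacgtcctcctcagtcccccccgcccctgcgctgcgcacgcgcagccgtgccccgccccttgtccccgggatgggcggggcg

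With LPS, *Cd38*, *Nampt*, *Sirt6* and, with TMM scaling but not with library sizes alone, *Sirt2* rose at both ages, and *Sirt3* and *Sirt7* fell. Between ages, *Cd38* and *Nampt* were lower in aged than in young cells, without LPS and with it, and *Sirt1* was higher in aged cells under LPS. In edgeR's quasi-likelihood F-test at an adjusted p below 0.05, 2 of the 10 genes differed between aged and young untreated cells, both lower in aged cells, where 11.5% of all genes tested did, 3.71% higher and 7.81% lower. LPS changed 7 of the 10 in young cells (4 higher, 3 lower), beside 64.6% of all genes tested, 31.2% higher and 33.5% lower. It changed 7 of the 10 in aged cells (4 higher, 3 lower), beside 54.4% of all genes, 27.5% higher and 26.9% lower. Under LPS, 3 of the 10 differed between ages (1 higher, 2 lower in aged cells), beside 29.0% of all genes, 14.0% higher and 15.0% lower. The libraries of the groups compared did not overlap for 2 of the 10 genes between untreated ages (10.4% of all genes), for 4 with LPS in young cells (49.1%), for 5 with LPS in aged cells (40.1%) and for 2 between ages under LPS (14.8%). The LPS responses of young and aged cells differed for 0 of the 10 in edgeR, beside 6.39% of all genes (4.12% with a higher and 2.27% with a lower response in aged cells). An unadjusted p below 0.05 was found for 2 of the 10, beside 19.4% of all genes. DESeq2's Wald test called 1 of the 10, and 1041 genes over the whole table. Without replicate 2 the shares of all genes called were 4.27% between untreated ages, 16.8% between ages under LPS and 1.47% for the interaction, and the last was 4.16% without replicate 4 and 3.20% without replicate 5. Beside these shares the counts of members called are no result about the set, and the sizes of single changes follow. With library sizes in place of TMM the share of all calls that were higher went from 32.2% to 42.2% between untreated ages, from 48.2% to 27.3% with LPS in young cells, from 50.6% to 28.4% with LPS in aged cells, from 48.3% to 70.1% between ages under LPS and from 64.4% to 81.3% for the interaction. That scaling moved the median log2 fold change of all genes with LPS from -0.01 to -0.23 in young and from 0.00 to -0.16 in aged cells. The median absolute log2 fold change of the 10 genes was 0.32 in young cells with LPS (0.35 over all genes) and 0.43 in aged cells (0.26 over all genes).

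**Figure D1:**
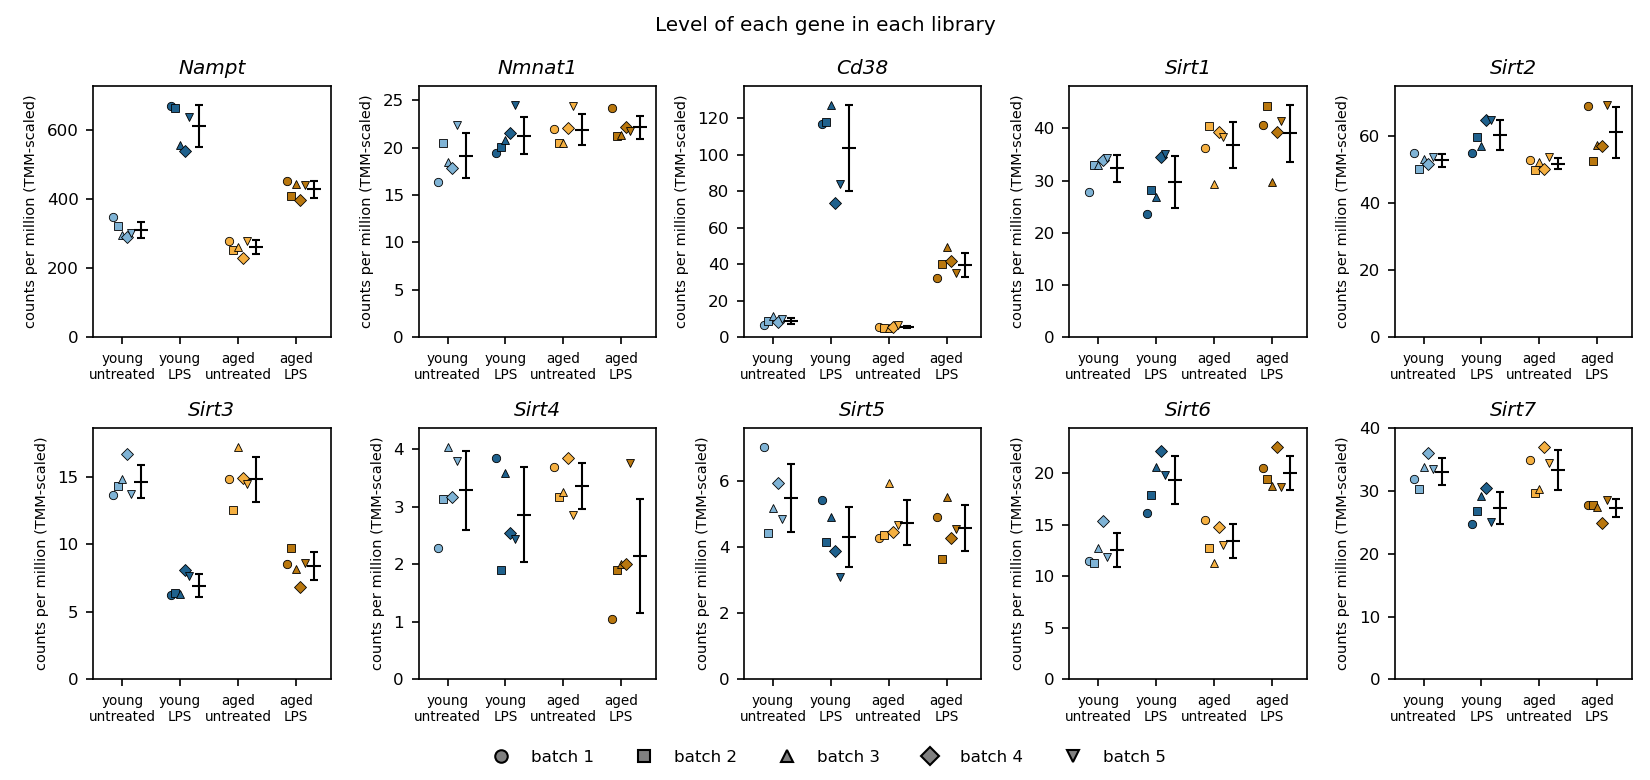
Level of the 10 genes in each of the 20 libraries, in CPM with TMM-scaled library sizes (linear axes from 0), with the mean and SD of each group of 5 as bars and batch numbers as symbols. *Cd38* rose from 6.97 to 11.5 CPM in young untreated libraries to 73.6 to 127 CPM with LPS, and stood at 32.2 to 49.3 CPM in aged cells with LPS.

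*Cd38* (ENSMUSG00000029084, chr5:43868553-43912375 on GRCm38) changed most of the 10 genes. In young untreated cells its levels were 6.97, 9.08, 11.5, 8.44 and 9.92 CPM. With LPS young cells reached 117, 118, 127, 73.6 and 83.8 CPM. Every LPS library was far above every untreated one: the mean went from 9.18 ± 1.68 to 104 ± 23.6 CPM (SD, n = 5), an 11.3-fold rise (log2 fold change 3.49, SE 0.16, edgeR adjusted p = 8.65e-15). This log2 fold change was above that of 98.3% of the genes tested.

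The aged untreated libraries held 5.50, 4.85, 5.31, 5.44 and 6.53 CPM of *Cd38*, and aged LPS libraries 32.2, 40.0, 49.3, 42.0 and 35.1 CPM. The groups did not overlap, and the mean rose 7.19-fold from 5.52 ± 0.616 to 39.7 ± 6.62 CPM (SD, n = 5; log2 fold change 2.85, SE 0.17, edgeR adjusted p = 1.7e-12). Untreated, the highest aged library lay just below the lowest young one, and the mean was 1.67-fold lower in aged cells (log2 -0.74, SE 0.18, edgeR adjusted p = 0.0113), in 5 of 5 batches. This call was lost without batch 2 (adjusted p = 0.0775). Under LPS the aged level was 2.61-fold lower (log2 -1.38, SE 0.14, adjusted p = 2.71e-07), again in 5 of 5 batches and with no overlap; 1.3% of the genes tested had a lower log2 fold change.

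*Nampt* (ENSMUSG00000020572, chr12:32819545-32853349) was the most abundant of the 10 genes and also responded. Young untreated cells held 348, 322, 296, 289 and 300.1 CPM and young LPS cells 668, 662, 557, 537 and 636 CPM. The mean rose 1.97-fold with no overlap, from 311 ± 23.9 to 612 ± 60.8 CPM (SD, n = 5; log2 0.98, SE 0.07, edgeR adjusted p = 2.83e-11). In aged cells the levels were 279.6, 252, 262, 230.2 and 279 CPM untreated and 452, 407, 443, 397 and 439.8 CPM with LPS, a 1.64-fold rise in the means, 261 ± 20.6 and 428 ± 23.9 CPM (log2 0.72, SE 0.07, edgeR adjusted p = 9.58e-09). All aged untreated libraries lay below all young untreated ones, by 1.19-fold in the mean (log2 -0.25, SE 0.07, adjusted p = 0.0196). As for *Cd38*, the call was lost without batch 2 (adjusted p = 0.135). Under LPS the aged cells were 1.43-fold lower (log2 -0.52, SE 0.07, adjusted p = 7.96e-06), and the ranges, 397 to 452 CPM in aged and 537 to 668 CPM in young cells, were apart.

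*Nmnat1* (ENSMUSG00000028992, chr4:149467572-149485202), the enzyme after *Nampt* in the nucleus, passed the test in no comparison. Its levels were 16.4, 20.5, 18.5, 17.9 and 22.4 CPM in young untreated and 19.5, 20.1, 20.8, 21.6 and 24.5 CPM in young LPS cells. Aged cells held 21.9, 20.5, 20.4, 22.1 and 24.4 CPM untreated and 24.2, 21.2, 21.3, 22.2 and 21.8 CPM with LPS. All 4 groups overlapped. The log2 fold change with LPS was 0.16 in young cells (95% interval -0.02 to 0.33, edgeR adjusted p = 0.106) and 0.02 in aged cells (95% interval -0.15 to 0.19, adjusted p = 0.871), so a rise of the size seen for *Nampt* lay outside both intervals. Aged minus young untreated was 0.19 (95% interval 0.02 to 0.36, adjusted p = 0.136), with the aged library higher in 5 of 5 batches.

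Of the mitochondrial sirtuins, *Sirt3* (ENSMUSG00000025486, chr7:140863666-140882309), the main mitochondrial deacetylase, fell with LPS at both ages. Young cells held 13.7, 14.3, 14.9, 16.7 and 13.7 CPM untreated and 6.22, 6.39, 6.35, 8.13 and 7.66 CPM with LPS. Aged cells held 14.9, 12.6, 17.2, 14.9 and 14.5 CPM untreated and 8.57, 9.73, 8.21, 6.81 and 8.61 CPM with LPS. In both ages each LPS library was below each untreated one. The mean fell 2.1-fold in young cells, from 14.6 ± 1.24 to 6.95 ± 0.882 CPM (SD, n = 5; log2 -1.07, SE 0.11, edgeR adjusted p = 7.45e-09), and 1.77-fold in aged cells, to 8.39 ± 1.05 CPM (log2 -0.82, SE 0.10, adjusted p = 4.76e-07). Of the genes tested, 7.1% had a lower log2 fold change in young cells. Untreated, the ages were not called different (log2 0.02, 95% interval -0.18 to 0.22, adjusted p = 0.942); under LPS aged minus young was 0.27 (95% interval 0.03 to 0.50, adjusted p = 0.0798), a call gained without batch 4 (0.39, adjusted p = 0.015) and with library sizes in place of TMM (0.34, adjusted p = 0.0223). Exons of *Sirt3* share 418 bases (7.0%) with *Ric8a* and 342 bases (5.73%) with *Psmd13* on the other strand. With LPS *Ric8a* rose (log2 0.53 in young and 0.43 in aged cells) and *Psmd13* did not pass the test (0.11 and 0.04), and neither fell.

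*Sirt4* and *Sirt5* were the lowest of the 10 genes, with 15 to 70 and 42 to 104 counts per library, and their changes were the least certain. *Sirt4* (ENSMUSG00000029524, chr5:115478010-115484725), a mitochondrial lipoamidase and ADP-ribosyltransferase, had 3.69, 3.16, 3.25, 3.85 and 2.86 CPM in aged untreated and 1.05, 1.90, 2.00, 2.01 and 3.76 CPM in aged LPS cells. The mean fell 1.57-fold (log2 -0.65, SE 0.24, edgeR adjusted p = 0.0262), in 4 of 5 batches, and the groups overlapped through batch 5 of the LPS group. The call was lost without batch 1, 2, 3 or 4 in turn (adjusted p = 0.0602 to 0.116). In young cells *Sirt4* held 2.28 to 4.05 CPM untreated and 1.91 to 3.85 CPM with LPS, a log2 fold change of -0.21 (95% interval -0.70 to 0.28, adjusted p = 0.457). *Sirt5* (ENSMUSG00000054021, chr13:43365496-43395203), a desuccinylase, had 7.04, 4.41, 5.19, 5.93 and 4.86 CPM in young untreated and 5.43, 4.15, 4.90, 3.88 and 3.10 CPM in young LPS cells, which overlapped. Its fall of 1.28-fold was just past the threshold (log2 -0.36, SE 0.16, adjusted p = 0.0495) and was not called by DESeq2 (adjusted p = 0.0838) or without batch 1, 4 or 5 (0.0664 to 0.187). Aged cells held 4.27 to 5.94 CPM untreated and 3.63 to 5.52 CPM with LPS (log2 -0.05, 95% interval -0.37 to 0.28, adjusted p = 0.821).

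Among the nuclear sirtuins, *Sirt6* (ENSMUSG00000034748, chr10:81621785-81627797), a histone deacetylase of chromatin and DNA repair, rose with LPS. Young cells held 11.5, 11.3, 12.8, 15.4 and 11.9 CPM untreated and 16.2, 17.9, 20.6, 22.2 and 19.9 CPM with LPS. Aged cells held 15.5, 12.7, 11.3, 14.8 and 13.1 CPM untreated and 20.6, 19.5, 18.8, 22.6 and 18.7 CPM with LPS. Every LPS library was above every untreated library of either age. The rise was 1.55-fold in young cells, from 12.6 ± 1.66 to 19.4 ± 2.35 CPM (SD, n = 5; log2 0.63, SE 0.10, edgeR adjusted p = 1.27e-05), and 1.49-fold in aged cells, from 13.5 ± 1.67 to 20.0 ± 1.63 CPM (log2 0.57, SE 0.10, adjusted p = 5.05e-05). The ages were not called different, with log2 values of 0.10 untreated (95% interval -0.12 to 0.31) and 0.04 under LPS (95% interval -0.17 to 0.25).

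*Sirt7* (ENSMUSG00000025138, chr11:120618372-120625240), a deacetylase tied to ribosomal RNA transcription, fell by a smaller amount. Its levels were 31.9, 30.3, 33.9, 36.0 and 33.5 CPM in young untreated and 24.8, 26.8, 29.2, 30.5 and 25.1 CPM in young LPS cells. The aged levels were 35.0, 29.6, 30.4, 37.1 and 34.4 CPM untreated and 27.7, 27.7, 27.5, 24.9 and 28.5 CPM with LPS. All batches were lower with LPS at both ages, though in young cells the highest LPS library just passed the lowest untreated one. The falls were 1.21-fold (log2 -0.28, SE 0.07, edgeR adjusted p = 0.00222) and 1.22-fold (log2 -0.29, SE 0.07, adjusted p = 0.00195). *Sirt7* shares 124 exonic bases (2.41%) with *Mafg* on the same strand, which rose with LPS (log2 0.69 in young and 0.62 in aged cells).

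*Sirt1* (ENSMUSG00000020063, chr10:63319005-63381704), a deacetylase of histones and of transcription factors such as p65 and the FOXO proteins, was the only member higher in aged cells by the test, and this under LPS. Young LPS cells held 23.6, 28.1, 27.0, 34.5 and 35.1 CPM and aged LPS cells 40.6, 44.2, 29.7, 39.3 and 41.4 CPM. The aged library was the higher one in 5 of 5 batches, but the ranges overlapped; the means were 29.7 ± 4.98 and 39.1 ± 5.51 CPM (SD, n = 5), a 1.31-fold difference (log2 0.39, SE 0.11, edgeR adjusted p = 0.0117). The call was lost without batch 1 (adjusted p = 0.0578) or batch 2 (0.108). Untreated cells held 27.9, 32.9, 33.0, 33.9 and 34.3 CPM when young and 36.3, 40.4, 29.3, 39.3 and 38.4 CPM when aged, overlapping (log2 0.18, 95% interval -0.05 to 0.41, adjusted p = 0.325). LPS itself gave log2 values of -0.12 in young (95% interval -0.36 to 0.11, adjusted p = 0.353) and 0.09 in aged cells (95% interval -0.14 to 0.32, adjusted p = 0.53).

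*Sirt2* (ENSMUSG00000015149, chr7:28766735-28788661), a tubulin and histone deacetylase, was the most abundant sirtuin. It held 55.0, 50.1, 53.3, 51.7 and 53.7 CPM in young untreated and 54.9, 59.7, 57.0, 64.8 and 64.7 CPM in young LPS cells. In aged cells it held 52.8, 49.8, 52.2, 50.3 and 53.9 CPM untreated and 69.0, 52.5, 57.5, 57.0 and 69.4 CPM with LPS. The untreated groups were tight and the LPS groups more spread, with overlap at each age. The rise with LPS was 1.14-fold in young (log2 0.19, SE 0.07, edgeR adjusted p = 0.0178) and 1.18-fold in aged cells (log2 0.24, SE 0.07, adjusted p = 0.00516), but with library sizes in place of TMM the young value turned to -0.03 (adjusted p = 0.755) and the aged value was 0.08 (adjusted p = 0.35). The young call was also lost without batch 4 or 5 (adjusted p = 0.0964 and 0.0541). *Sirt2* shares 42 exonic bases with *Nfkbib* on the other strand, which rose with LPS (log2 1.82 in young and 1.32 in aged cells).

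**Figure D2:**
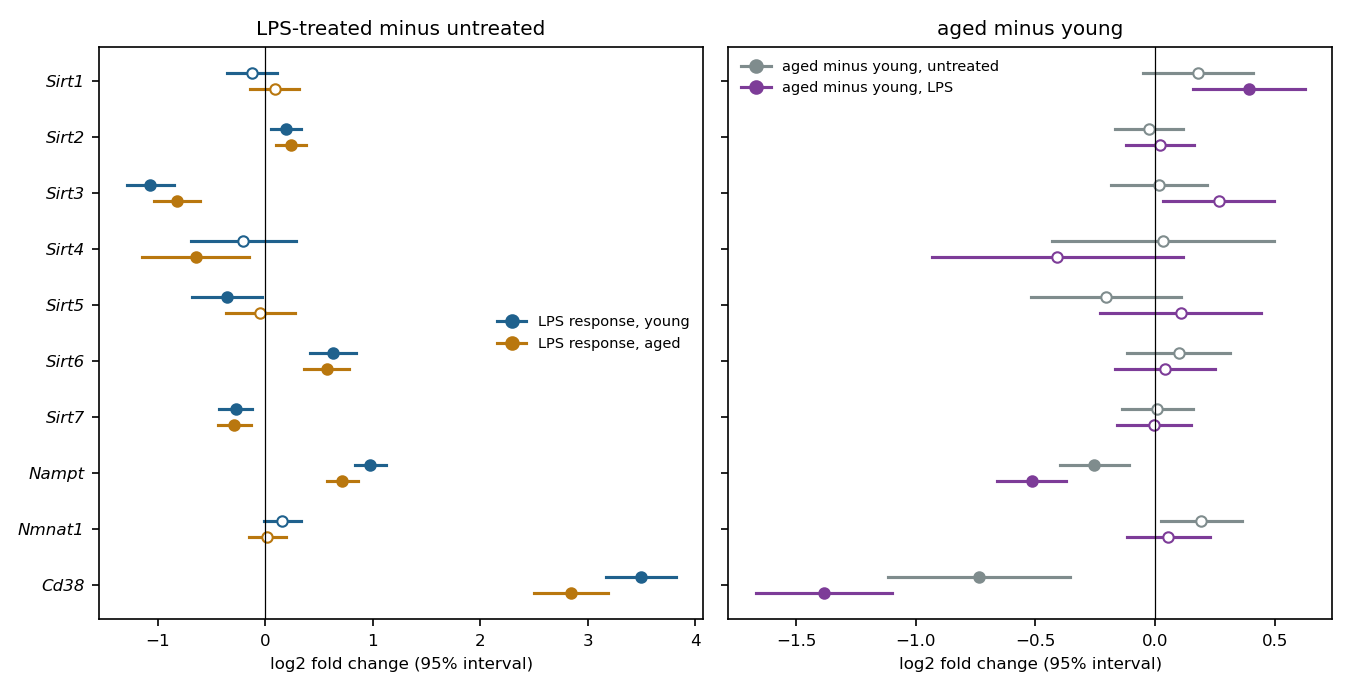
Log2 fold changes of the 10 genes with 95% intervals from edgeR, for LPS-treated minus untreated cells (left, young blue and aged brown) and aged minus young cells (right, untreated grey and LPS purple); filled points have an adjusted p below 0.05. *Cd38* lies at 3.49 and 2.85 with LPS and at -0.74 and -1.38 between ages, and *Sirt3* at -1.07 and -0.82 with LPS.

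Whether the response to LPS differed between ages was tested by the interaction in the same fit. The log2 response of *Cd38* was 0.65 smaller in aged cells (difference -0.65, SE 0.23, 95% interval -1.12 to -0.17), in 5 of 5 batches, with an unadjusted p of 0.00999 and an edgeR adjusted p of 0.102; DESeq2's Wald test gave an adjusted p of 0.0346. The response of *Nampt* was smaller by 0.26 (difference -0.26, SE 0.10, 95% interval -0.46 to -0.06), also in 5 of 5 batches, with an adjusted p of 0.122. With the replicate block, that is with batch in the fit, the adjusted p was 0.0178 for *Nampt*, which passes, and 0.0593 for *Cd38*, which does not. The interval of *Sirt3* was -0.06 to 0.55 around 0.25 and that of *Sirt4* -1.14 to 0.26 around -0.44. For *Sirt6*, *Sirt7* and *Sirt2* the differences were -0.06 (95% interval -0.35 to 0.24), -0.01 (-0.23 to 0.20) and 0.05 (-0.15 to 0.25), so a difference of the size of that of *Cd38* lay outside all 3. The comparisons of ages and of LPS share libraries, so their values for a gene are not independent of each other.

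Levels per kilobase of annotated exon allow for the length of a gene. That length merges the exons of all annotated transcripts and need not be that of the RNA in these cells. The order of genes depends on it. On this scale *Nampt* stood highest in every group, at 61.5 CPM per kb in young untreated, 121 in young LPS, 51.6 in aged untreated and 84.6 in aged LPS cells. In young untreated cells *Sirt2* followed at 10.5, apart from its neighbours in the order. *Sirt7*, *Nmnat1* and *Sirt1* came next at 6.43, 6.30 and 6.08 CPM per kb, *Nmnat1* overlapping *Sirt7* and *Sirt1* overlapping *Nmnat1*. *Sirt6* stood at 4.51, overlapping *Sirt1*, *Sirt3* at 2.45 and *Cd38* at 2.36 CPM per kb, the last 2 overlapping, and *Sirt4* and *Sirt5* were last at 1.37 and 0.901. In aged untreated cells *Nmnat1* and *Sirt1* stood before *Sirt7*, with overlap, and *Cd38*, at 1.42 CPM per kb, was below *Sirt3* (2.48) in every library and overlapped *Sirt4* (1.40). With LPS *Cd38* moved to the second place in young cells, at 26.7 CPM per kb against 12.0 for *Sirt2* with no overlap. In aged LPS cells it reached 10.2, below *Sirt2* (12.1) in 4 of 5 libraries and overlapping it. On this scale *Sirt3* dropped to the level of *Sirt4* in young LPS cells, 1.16 and 1.19 CPM per kb with overlap. It stood at 1.40 against 0.895, overlapping too, in aged LPS cells. In CPM, without the length, *Sirt3* stayed above *Sirt4* in young LPS cells, at 6.22 to 8.13 against 1.91 to 3.85.

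**Figure D3:**
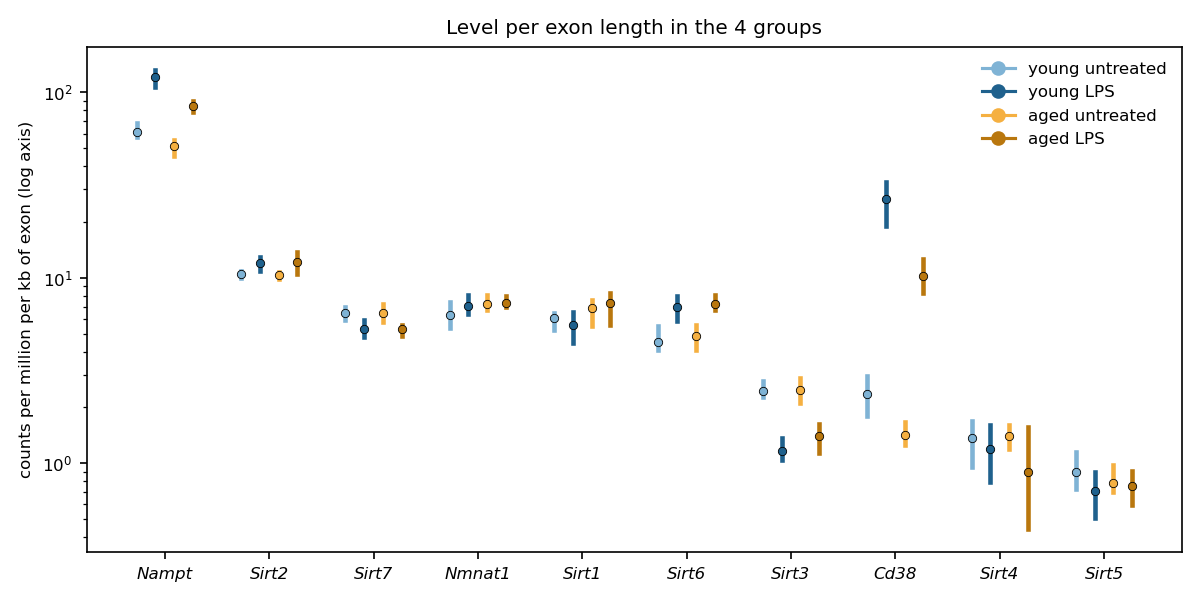
Mean level of the 10 genes in CPM per kilobase of exon, on a log axis, with lines from the lowest to the highest of 5 libraries per group. *Nampt* is highest in all 4 groups, *Cd38* moves from 2.36 to 26.7 CPM per kb with LPS in young cells, and *Sirt5* is last in all 4.

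Ratios of raw counts within a library do not depend on scaling, and are given as a description with no test. The *Cd38* counts per 100 *Nampt* counts, an enzyme that breaks NAD down against one that makes it, were 2.01, 2.82, 3.88, 2.92 and 3.31 in young untreated and 17.5, 17.8, 22.8, 13.7 and 13.2 in young LPS libraries. In aged cells they were 1.97, 1.92, 2.03, 2.36 and 2.34 untreated and 7.14, 9.82, 11.1, 10.6 and 7.98 with LPS. At both ages every LPS library was above every untreated one, and all aged LPS libraries were below all young LPS ones: the means were 2.99 ± 0.688, 17.0 ± 3.89, 2.12 ± 0.211 and 9.33 ± 1.71 (SD, n = 5 each). The counts of *Nampt* per count of *Nmnat1* were 16.5 ± 2.89 and 29.0 ± 4.32 in young cells without and with LPS, and 11.9 ± 1.01 and 19.3 ± 1.17 in aged cells (SD, n = 5). Here the aged ranges, 10.4 to 12.8 untreated and 17.9 to 20.8 with LPS, were below the young ones of 13.4 to 21.3 and 24.9 to 34.3.

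The sum over the sirtuins and the share of each are given next. The 7 genes together held 154 ± 6.46 CPM in young untreated, 151 ± 12.1 in young LPS, 158 ± 6.61 in aged untreated and 163 ± 10.8 in aged LPS cells (SD, n = 5), ranges that all overlapped. *Sirt6* counts per *Sirt3* count were 0.790 to 0.921 and 0.656 to 1.04 in young and aged untreated libraries, and 2.596 to 3.25 and 2.00 to 3.32 with LPS. No untreated library reached an LPS one. Of the sum of levels per kb over the 7 sirtuins, *Sirt3* held 7.61 ± 0.423% and 7.50 ± 1.04% in young and aged untreated cells and 3.54 ± 0.220% and 4.02 ± 0.540% with LPS. *Sirt6* held 14.0 ± 1.24% and 14.6 ± 1.20% untreated and 21.1 ± 1.14% and 20.6 ± 2.08% with LPS.

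**Figure D4:**
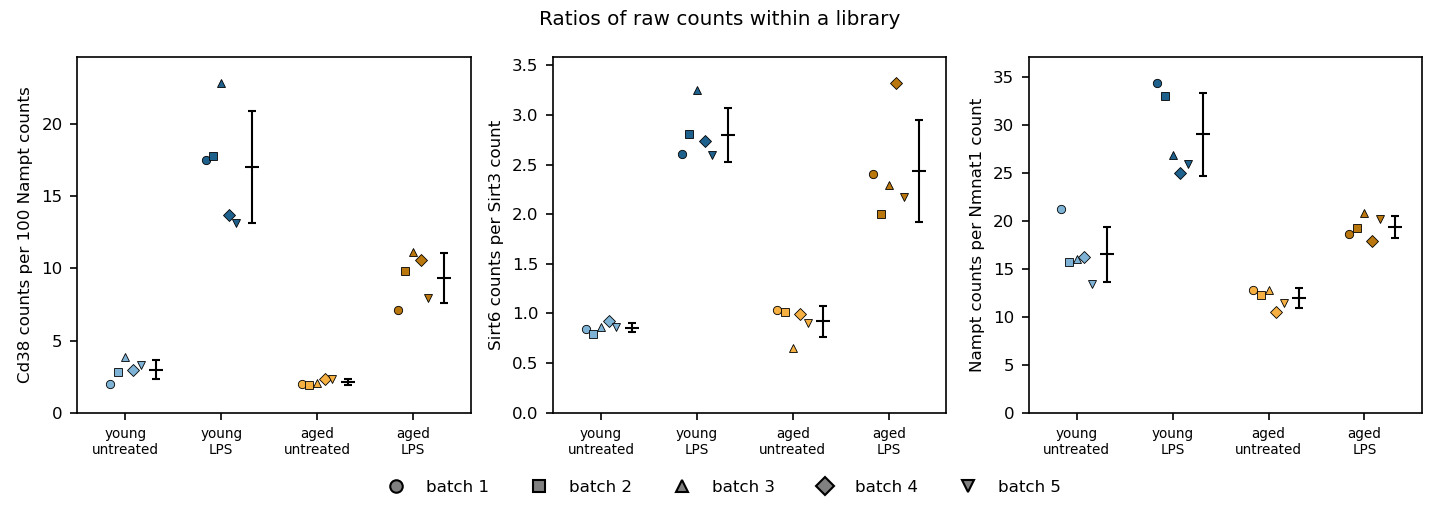
Ratios of raw counts within each of the 20 libraries (linear axes from 0), with group means and SDs as bars and batches as symbols: *Cd38* per 100 *Nampt* counts, *Sirt6* per *Sirt3* count, and *Nampt* per *Nmnat1* count. With LPS, *Cd38* per 100 *Nampt* spans 13.2 to 22.8 in the young group and 7.14 to 11.1 in the aged group.

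The genes whose pattern was most like that of a member were found by the distance between their log2 fold changes in 3 contrasts, aged against young untreated and LPS in each age, over all genes tested. They are given for the 5 members whose group means spanned at least 0.5 on the log2 CPM scale. *Tmem171* was nearest to *Cd38* at a distance of 0.04, with log2 values of -0.72, 3.50 and 2.88, followed by *Lgals9*, the galectin-9 gene, at 0.25 and *Cdcp1* at 0.25. Nearest to *Nampt* were *Il13ra1*, an interleukin-13 receptor chain, at 0.04, *2010016I18Rik* at 0.08 and *Nr1h3*, the sterol-sensing nuclear receptor LXR alpha, at 0.09. *Pradc1* and *Stard4*, a cholesterol transporter, were within 0.05 of *Sirt3*. For *Sirt6* they were *Rnd2*, *Mob1b* and *Srf*, the serum response factor, all within 0.05, and for *Sirt4* *A930037H05Rik*, *Gm11423* and *Cox20* at 0.09 to 0.13.

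The wider pathway was read from 4 lists: NAD synthesis and salvage, NAD consumption and breakdown, NAD carriers and shuttles, and sirtuin partners and substrates. Of 66 genes listed, 65 matched 1 identifier and 46 passed the filter on low counts. Genes at or below 3 counts in every library were *Nmnat2*, *Nmrk2*, *Qprt*, *Tdo2*, *Ido1* and *Acmsd* of synthesis, *Nnmt*, *Nt5e*, *Enpp1* and *Art2b* of consumption, *Slc12a8* and *Ldhb* of the carriers, and *Hic1*, *Ppargc1a*, *Cps1* and *Acadl* of the partners. In edgeR, LPS changed 35 of the 46 in young cells, 13 higher and 22 lower, beside 64.6% of all genes tested. The median log2 fold change was -0.12 there, against -0.01 over all genes. LPS changed 30 of the 46 in aged cells, 13 higher and 17 lower, beside 54.4% of all genes (median -0.07, against 0.00). Between ages 7 of the 46 differed untreated, 1 higher and 6 lower, beside 11.5% of all genes (12 with the replicate block, beside 17.2%). Under LPS 19 differed, 10 higher and 9 lower, beside 29.0% of all genes. The interaction was called for 8, 4 in each direction, beside 6.39% of all genes. Dropping 1 batch at a time, 3 of the 7 genes called between untreated ages stayed called in all 5 fits, as did 31 of 35 with LPS in young cells, 21 of 30 in aged cells, 10 of 19 between ages under LPS and 3 of the 8 interactions. Calls lost are named with the genes. The counts of the lists were not tested against the shares of all genes.

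In the list of NAD synthesis and salvage, *Nadk*, the cytosolic kinase that turns NAD into NADP, rose with LPS at both ages, from 147 ± 7.52 to 434 ± 20.1 CPM in young cells (SD, n = 5; 2.94-fold, log2 1.56, edgeR adjusted p = 1.72e-17) and from 139.8 ± 5.73 to 407 ± 19.6 CPM in aged cells (log2 1.54, adjusted p = 3.25e-17); the interaction was -0.02 (SE 0.07, adjusted p = 0.948). Its mitochondrial counterpart *Nadk2* fell, with log2 values of -0.71 and -0.64. *Pnp*, purine nucleoside phosphorylase, which frees nicotinamide from its riboside, rose from 53.0 ± 3.83 to 188 ± 32.3 CPM in young cells and from 53.1 ± 5.68 to 111 ± 18.5 CPM in aged cells, and its response differed between ages (interaction log2 -0.77, SE 0.16, adjusted p = 0.00486, and 0.0634 without batch 2); its near-identical neighbour *Pnp2* makes the split of reads between them uncertain. *Kyat1*, a kynurenine aminotransferase, fell from 2.91 ± 0.632 to 1.26 ± 0.308 CPM in young cells and in aged cells (log2 -0.92). In all, 9 of the 13 genes tested were called in young cells, 3 higher and 6 lower, beside 64.6% of all genes. The third higher one was the low *Ido2*, named after its values were seen. In aged cells 9 were called, 2 higher and 7 lower, beside 54.4% of all genes. *Kmo* and *Kynu*, enzymes of the kynurenine route from tryptophan, are named after their values were seen, since they were the only genes of this list called between untreated ages, both lower in aged cells (*Kmo* at 1.81 ± 0.370 against 3.62 ± 0.596 CPM, SD, n = 5, edgeR adjusted p = 0.00423, and *Kynu* with log2 -0.79, adjusted p = 0.0132). The call of *Kynu* was lost without batch 2, 3 or 5 (0.0512 to 0.0739). Both fell with LPS too, *Kmo* with log2 values of -2.16 in young and -2.15 in aged cells and *Kynu* with -1.58 and -2.01, to 2 to 18 counts per library.

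Among other genes that consume or break down NAD, *Parp1*, the main nuclear poly(ADP-ribose) polymerase, fell from 561 ± 13.0 to 372 ± 21.4 CPM with LPS in young cells (1.51-fold, edgeR adjusted p = 5.14e-11) and from 552 ± 22.9 to 425 ± 14.2 CPM in aged cells (1.3-fold, adjusted p = 1.4e-07), a smaller fall by the interaction (log2 0.21, SE 0.06, adjusted p = 0.0383) that was not called without batch 2, 3 or 4 (0.134 to 0.263). *Parp2* fell, with log2 values of -0.31 and -0.16, and both were higher in aged than in young cells under LPS. *Nudt12*, a peroxisomal NADH pyrophosphatase, was the gene of this list lower in aged untreated cells (log2 -0.56, adjusted p = 0.0166) and fell with LPS at both ages, while *Nudt13* rose (log2 0.63 and 0.36). Without batch 1, 2, 4 or 5 *Nudt12* lost its call between untreated ages (adjusted p = 0.0579 to 0.103) and with LPS in aged cells (0.0625 to 0.122). The aged call was also lost for *Nudt13* without batch 2, 3 or 4 (0.0838 to 0.179) and for *Parp2* without batch 5 (0.0685). LPS changed 7 of the 9 tested in young cells, 2 higher and 5 lower, beside 64.6% of all genes. The higher ones were *Nudt13* and *Aox1*, the latter at 3 to 19 counts and named after its values were seen. In aged cells LPS changed 5, 1 higher and 4 lower, beside 54.4% of all genes.

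The list of carriers and shuttles was led by *Gpd2*, the mitochondrial glycerol-3-phosphate dehydrogenase that passes electrons of cytosolic NADH to the respiratory chain. It rose from 113 ± 3.55 to 321 ± 30.7 CPM in young cells (2.85-fold, edgeR adjusted p = 2.97e-16) and from 127 ± 3.82 to 247 ± 11.2 CPM in aged cells (1.95-fold, adjusted p = 8.66e-13). The response was smaller in aged cells (interaction log2 -0.55, SE 0.08, adjusted p = 0.000201), and the untreated level was slightly higher (log2 0.17, adjusted p = 0.045), the only rise among the 7 genes called there, and one lost without any 1 of the 5 batches (adjusted p = 0.0745 to 0.153). *Slc25a12*, an aspartate-glutamate carrier, rose with log2 values of 0.48 and 0.18 with LPS, *Mdh1*, the cytosolic malate dehydrogenase, fell with -0.50 and -0.48, and *Slc25a51*, the mitochondrial NAD carrier, with -0.34 and -0.24. Under LPS *Got1* and *Ldha* were higher in aged than in young cells (log2 0.32 and 0.19). In aged cells the LPS call of *Slc25a12* was lost without batch 1, 2 or 5 (0.0523 to 0.0848) and that of *Slc25a51* without batch 2, 3, 4 or 5 (0.0659 to 0.135), and under LPS that of *Ldha* between ages without batch 1 or 2 (0.067 and 0.0927).

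Of sirtuin partners and substrates, *Sod2*, the mitochondrial superoxide dismutase that SIRT3 deacetylates, rose most, from 152 ± 8.63 to 734 ± 59.1 CPM in young cells (4.83-fold, edgeR adjusted p = 1.27e-18) and from 129.5 ± 3.82 to 517 ± 32.3 CPM in aged cells (3.99-fold, adjusted p = 1.39e-17). Its response was smaller in aged cells (interaction log2 -0.28, SE 0.08, adjusted p = 0.0375), a call lost without any 1 of the 5 batches (0.0515 to 0.261). *Hif1a* rose with log2 values of 1.12 in young and 0.83 in aged cells. *Acss2*, an acetyl-CoA synthetase activated by SIRT1, rose in young cells from 3.70 ± 0.776 to 12.3 ± 3.80 CPM; in aged cells its log2 fold change was 0.44 (adjusted p = 0.178), with an interaction of -1.31 (SE 0.38, adjusted p = 0.0405) that was not called without batch 2, 3, 4 or 5 (0.0718 to 0.224).

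*Foxo1* and *Foxo4*, transcription factors of the FOXO family that SIRT1 deacetylates, fell with LPS at both ages. *Foxo1* went from 22.7 ± 1.66 to 6.95 ± 0.943 CPM in young cells (3.24-fold, edgeR adjusted p = 2.53e-13) and from 23.3 ± 1.40 to 11.8 ± 1.30 CPM in aged cells (1.98-fold, adjusted p = 1.65e-09), and *Foxo4* fell 2.29-fold and 1.66-fold. The interaction was called for both, *Foxo1* at log2 0.71 (SE 0.13, adjusted p = 0.00141) and *Foxo4* at 0.47 (SE 0.09, adjusted p = 0.00409), and for *Foxo3* at 0.44 (adjusted p = 0.00403, and 0.0506 without batch 2). *Foxo3* fell with LPS in young cells (log2 -0.41, adjusted p = 5.31e-06), had a log2 value of 0.03 in aged cells (adjusted p = 0.744), and was lower in aged untreated cells (log2 -0.24, adjusted p = 0.0159), as were *Idh2*, the mitochondrial isocitrate dehydrogenase that SIRT3 deacetylates (log2 -0.30, adjusted p = 0.00177), and *Sod2* (log2 -0.23, adjusted p = 0.0103). Under LPS *Foxo3* was higher in aged cells (log2 0.20, adjusted p = 0.0196). Its call was lost without batch 2 between untreated ages (0.109) and without batch 1, 2 or 5 under LPS (0.0558 to 0.148).

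**Figure D5:**
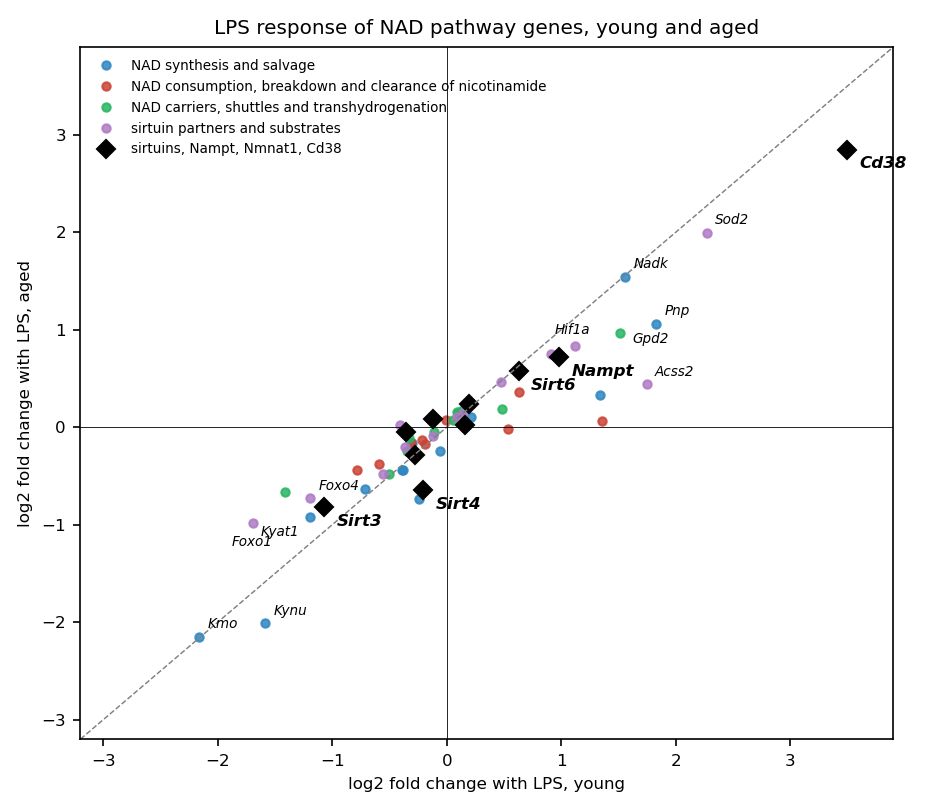
Log2 fold change with LPS in young (x) and aged (y) cells for the 46 tested pathway genes, coloured by list, and the 10 members as black diamonds; the dashed line marks equal responses. *Cd38* lies at 3.49 and 2.85, *Nampt* at 0.98 and 0.72 and *Gpd2* at 1.51 and 0.97, on the side of a smaller response in aged cells, while *Nadk* lies on the line.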

How the data were processed

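Stranded poly(A) RNA-seq libraries of 20 BV-2 cultures were analysed. The authors aligned reads to GRCm38 and deposited unnormalised counts per Ensembl gene; per the submitters' processing notes the tools were FastQC 0.11.8, STAR 2.6.1d, featureCounts 1.5.1 and DESeq2. How featureCounts treated strand, multiple alignments and overlapping genes is not given in the sources used here, so genes that overlap or have near-identical copies are uncertain. Symbols, positions and exon lengths came from GENCODE M21, in which 55227 of 55487 identifiers were found. *Nnt* matched 2 identifiers and was not used.

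Low counts were filtered by filterByExpr, and 12799 genes entered a quasi-likelihood F-test in edgeR (version 4.0.16, with limma 3.58.1 under R 4.3.3). A single fit held all 20 libraries in 4 groups, scaled by TMM. P-values were adjusted by Benjamini and Hochberg's method over all genes of the fit, and 0.05 was the threshold. Levels are TMM-scaled CPM, with a prior count of 2 on the log2 scale. The alternatives changed the scaling (DESeq2 size factors, or no factor beyond the library size), the filter (none, or 10 counts in each library), the test (Wald test of DESeq2 1.42.0), the model (a replicate block, or a fit of the compared groups alone) and the threshold (0.01, or also an absolute log2 fold change of 0.5 or more), or dropped 1 replicate number at a time. The fits were checked on simulated counts. Figures used Python 3.11.15, pandas 2.3.3, numpy 2.4.6 and matplotlib 3.10.9.

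Replicate numbers are the batch numbers of the labels, so that the replicate block is also the batch adjustment. To check the pairing, deviations from group means were correlated between libraries, which averaged 0.146 over 30 same-numbered pairs of libraries (-0.214 to 0.394) and -0.0358 over different numbers. Same-numbered untreated and LPS libraries correlated at 0.122 to 0.369 in young and 0.182 to 0.394 in aged cells. Same-numbered pairs across ages ranged from -0.214 to 0.275. The fit without the replicate block makes no use of this pairing. No pair of libraries of a group differed by as little as sampling noise. A count of 3 was the floor, 0.178 to 0.264 CPM, which covers counting error only. The study names 5 independent replicates per group, and p-values measure the spread between these. Its methods describe aged cells frozen as aliquots after the long cultivation, and do not say how many separate cultivations there were. The p-values between ages therefore need not cover the spread between separately aged cultures.

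The members and the lists were chosen with earlier results of these data known, and the promoter letters after the windows were read. Genes named beside the members were, from each list and contrast, up to 2 higher and 2 lower with the largest change among those called whose mean log2 CPM was 1 or more, and the 3 genes nearest in pattern to a member whose group means spanned at least 0.5 log2 CPM. One gene that this rule picks is not reported here. Other genes of the lists are named by their call or their level alone.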

Additional observations from a re-analysis of the deposited data

Results flagged for a closer look

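In 3 of 40 sets of 5 libraries, 1 for each gene and group, 1 library stood apart from the other 4 by Dixon's test at 95%, which chance gives in about 1 in 20 sets. *Sirt1* was lowest in young untreated replicate 1, at 27.9 CPM beside 32.9 to 34.3 CPM in the others. *Sirt5* was highest in aged untreated replicate 3, at 5.94 CPM beside 4.27 to 4.66 CPM. *Sirt7* was lowest in aged LPS replicate 4, at 24.9 CPM beside 27.5 to 28.5 CPM.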

How the results depend on the processing

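Of 590 alternative values for single members, 564 kept their side of the threshold, 19 lost a call and 6 gained one. In 1, a called value turned: *Sirt2* in young cells with LPS, which gave -0.0265 with library sizes alone. The 564 include values that changed sign without a call in either fit. An example is *Sirt1* with LPS in aged cells, at 0.09 in the main fit and down to -0.07. The rises of *Cd38*, *Nampt* and *Sirt6* and the falls of *Sirt3* and *Sirt7*, with LPS at both ages, were called under all 12 alternatives. So were the lower *Cd38* and *Nampt* of aged cells under LPS. Leaving out 1 replicate number at a time gave 0 to 2 members called between untreated ages (0 without replicate 2), 5 to 7 with LPS in young cells, 6 to 7 in aged cells, 2 to 4 between ages under LPS and 0 for the interaction. For the pathway lists these counts were 3 to 5 between untreated ages (3 without replicate 2), 32 to 35, 23 to 28, 13 to 18 and, for the interaction, 3 to 8 (3 without replicate 2, 5 without replicate 3 or 4). Fewer libraries enter those fits. Of all genes they called 4.27% to 9.3% between untreated ages, 58.5% to 62.5% with LPS in young cells and 48.1% to 51.1% in aged cells. Between ages under LPS they called 16.8% to 27.8% of all genes, and for the interaction 1.47% to 5.43%. Between untreated ages an adjusted p below 0.01 left 0 members and 2 pathway genes, and a log2 fold change of at least 0.5 left 1 and 3. The replicate block gave 12 pathway genes there, where it called 17.2% of all genes. For the interaction it called 1 member (*Nampt*), beside 9.03% of all genes, and it changed no other call of a member. DESeq2's Wald test also called 1 member for the interaction (*Cd38*), with 1041 genes called over the whole table. A log2 fold change of at least 0.5 left 4 members and 21 pathway genes with LPS in young cells, 13 pathway genes with LPS in aged cells, 8 between ages under LPS and 4 for the interaction. An adjusted p below 0.01 left 12 pathway genes between ages under LPS and 5 for the interaction. The compared groups alone gave 12 between ages under LPS, beside 24.9% of all genes. The cause was not tested. Shares of all genes at the thresholds of 0.01 and of a log2 fold change of 0.5 are not given here, so the counts under them have no background beside them. *Sirt5* in young cells lost its call with DESeq2's size factors (0.061), no filter (0.0627), the compared groups alone (0.0745) and without replicate 1, 4 or 5 (0.0664, 0.187 and 0.148). *Sirt2* in young cells lost it with no filter (0.0674) and without replicate 4 or 5 (0.0964 and 0.0541). *Sirt1* in young cells with LPS gained one with library sizes alone (-0.34, edgeR adjusted p = 0.0139), and *Sirt4* between ages under LPS gained one without replicate 5 (-0.77, adjusted p = 0.0326). The low counts of *Sirt4* and *Sirt5* limit what could be detected for them.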
